A study of Mus musculus with 5 samples.

Results

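The regions described here are 1417 windows of 1 kb in the mouse genome (build mm9) whose CpGs were methylated at 10 to 30% in wild-type (WT) embryonic stem (ES) cells. They were chosen on the autosomes from windows with at least 5 CpGs outside the sequence CCGG that had at least 10 reads in both the WT and the Fbxl10 T/T library, by the mean over these CpGs of the share of reads that still showed a cytosine after bisulfite treatment. Of 16881 windows measured in this way they made up 8.39%. Another 14053 windows lay below 10% in WT, 573 lay at 30 to 70% and 838 at 70% or above. The WT levels chose the windows, so WT levels and differences from WT are descriptions. Calls against WT, made with a test on reads, serve only to sort the windows and support nothing.

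The assay was reduced representation bisulfite sequencing (RRBS), which keeps short MspI fragments and therefore reads mostly CpG-rich DNA. There were 5 libraries of mouse ES cells, 1 per genotype: the pair WT and Fbxl10 T/T, and the Polycomb mutants Ring1B -/-, Eed -/- and Ezh2 -/-. WT and Fbxl10 T/T cells carried the strain label C57BL/6J, were grown with serum and LIF on inactivated mouse embryonic fibroblasts that were removed by plating before use, and were collected at passage 17. The 3 Polycomb mutants were grown with serum and LIF and have no strain or passage label, and the labels do not say what the T allele of Fbxl10 is, nor whether a line is 1 clone. With 1 library per genotype no difference has a replicate check, and every test below compares the reads of 2 libraries, not 2 genotypes.

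In mammals most CpGs are methylated, while CpG islands, the CpG-dense stretches at many promoters, stay unmethylated, and at their edges (shores) methylation climbs towards the level of the surrounding DNA. Windows of low but clear methylation can therefore hold an island edge, a whole region at which every CpG is methylated on some DNA molecules, or a few methylated CpGs among unmethylated ones. FBXL10 (also called KDM2B) binds unmethylated CpG-rich DNA and belongs to a variant Polycomb repressive complex 1. Ring1B is the ubiquitin ligase of that complex. Ezh2 methylates histone H3 at lysine 27 within Polycomb repressive complex 2, and Eed is a subunit that Ezh2 needs for this. By its title the series asks about a role of FBXL10 in keeping genes bound by Polycomb free of new methylation.

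The windows held 5 to 41 CpGs each (median 8, against 13 over all windows measured) and 13732 CpGs in all. Their median number of reads was 464 in WT and 268 in Fbxl10 T/T, where a read is counted at each CpG it covers. At autosomal CpGs outside CCGG the median was 38 reads in WT, 25 in Fbxl10 T/T and 3 in each Polycomb mutant, so single windows in the mutants rest on few reads. Promoters of the ES cell genes Klf4 and Lin28a, a reprogramming factor and an RNA-binding protein of pluripotent cells, read 0 to 1.91% in WT and Fbxl10 T/T. Of the fibroblast genes, Twist2 read 4.79% in WT and 57.6% in Fbxl10 T/T, and Col1a2, with 2 CpGs, 4.55% and 39.3%. The other 10 ES cell genes and 8 fibroblast genes of the lists had no matched promoter, and promoter methylation does not measure how many feeder cells remained. All intervals below are 95% Wilson intervals that cover counting error only, and they take reads or windows as independent, which makes them too narrow.

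The sequences of 8 stretches show what such windows look like. Each is the longest stretch of its window that the 5-base contexts of the tables spell out, on the + strand of mm9, 5′ to 3′, with every CpG in capitals, including those inside CCGG, which were not used for the levels. The first pair comes from windows with the largest rises in Fbxl10 T/T, the second pair from windows with nearly equal levels at all CpGs in WT, and the third pair from windows with the lowest difference. The last pair shows a window with 3 blocks of different level and the only window called up in both Ring1B -/- and Eed -/- among the few with 5 CpGs of 10 reads in these mutants.

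Rise, chr8:73121915-73122000: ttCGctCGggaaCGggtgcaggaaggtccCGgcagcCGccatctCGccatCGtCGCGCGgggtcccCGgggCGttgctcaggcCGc
Rise, chr14:55251209-55251294: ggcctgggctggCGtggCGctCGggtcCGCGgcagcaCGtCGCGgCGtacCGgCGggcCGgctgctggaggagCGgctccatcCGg
Even in WT, chr5:137358603-137358730: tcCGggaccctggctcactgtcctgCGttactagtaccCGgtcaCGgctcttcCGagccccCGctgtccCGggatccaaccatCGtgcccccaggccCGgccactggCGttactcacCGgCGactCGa
Even in WT, chr10:93774859-93774920: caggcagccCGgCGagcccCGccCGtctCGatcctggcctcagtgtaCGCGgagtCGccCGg
Fall, chr14:64563001-64563071: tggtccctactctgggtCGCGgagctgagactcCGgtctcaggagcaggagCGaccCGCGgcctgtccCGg
Fall, chr15:84069770-84069801: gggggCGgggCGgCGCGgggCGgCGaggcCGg
Blocks, chr19:42165036-42165149: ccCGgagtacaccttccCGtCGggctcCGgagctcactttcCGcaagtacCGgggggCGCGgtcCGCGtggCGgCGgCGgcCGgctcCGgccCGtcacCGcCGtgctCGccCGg
Ring1B and Eed, chr19:11943467-11943547: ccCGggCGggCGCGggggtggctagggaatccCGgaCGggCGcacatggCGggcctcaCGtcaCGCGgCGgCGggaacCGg

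In the chr8 stretch 11 CpGs were measured, and their WT levels ran from 0.787 to 15.0% while their Fbxl10 T/T levels ran from 73.3 to 84.9%. The 10 measured CpGs of the chr14 rise lay at 1.23 to 9.88% in WT and at 75 to 91.7% in Fbxl10 T/T. Every measured CpG of both stretches was thus far higher in Fbxl10 T/T. In the chr10 stretch the 7 CpGs lay between 6.12 and 15.6% in WT and between 46.2 and 66.7% in Fbxl10 T/T, so all 7 were higher there, by unequal amounts. In the chr15 stretch all 6 CpGs stood at 15.9 to 32.8% in WT and at 0 to 10.4% in Fbxl10 T/T. In the chr19 block stretch the first 3 measured CpGs read 0% in WT, the next 7, within 21 bases, read 33.0 to 51.1%, and the last 4 read 0.943 to 1.89%. Fbxl10 T/T had the same 3 blocks, with 0 to 1.41%, 32.7 to 37.5% and 0 to 1.54%.

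Across the 1417 windows the mean level was 16.7% in WT (SD over windows 5.40) and 49.97% in Fbxl10 T/T (SD 23.6), a mean difference of 33.2 points (SD 23.5). Over all 16881 windows the mean difference was 12.0 points and the median 0.320, because most of them are low in both libraries. The Fbxl10 T/T levels of the 1417 windows ran from 0 to 89.95%, with quartiles of 35.8 and 67.8% and a median of 57.0%. They were not spread evenly: 883 windows stood at 50% or above, 145 lay below 10%, and only 175 were still at 10 to 30%. A window was called if its adjusted p was below 0.05 and its level had moved by 20 points or more (two-sided Fisher's exact test of the summed reads, adjusted by Benjamini-Hochberg over every window). In all, 1044 of the 1417 were called up (73.7%, interval 71.3 to 75.9%) and 12 were called down (0.847%), where 25.3% of all windows were called up and 1.68% down. The WT level chose these windows and enters the same contrast, so nothing is read from that gap.

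**Figure D1:**
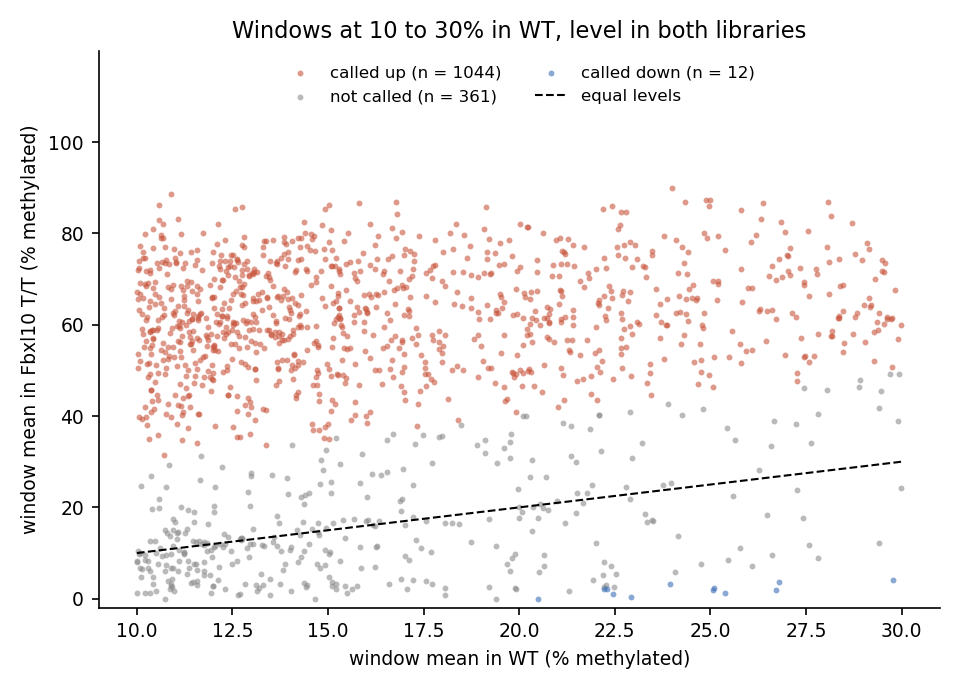
Mean methylation of each of the 1417 windows in WT (x axis, %) and in Fbxl10 T/T (y axis, %), coloured by call, with the line of equal levels dashed. The 1044 windows called up lie in a band with most points above 50%, the 361 not called lie on both sides of the line (118 lower by 5 to 20 points, 145 within 5 points and 98 higher by 5 to 20 points), and the 12 called down lie near 0% in Fbxl10 T/T.

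Within the class the share called up was similar at all WT levels, while the mean Fbxl10 T/T level was 47.5% in the lowest and 56.2% in the highest of 4 bins and the mean difference 35.2 and 28.6 points. The share called up was 72.9% for the 683 windows at 10 to 15%, 73.8% for the 336 at 15 to 20%, 74.4% for the 254 at 20 to 25% and 75.7% for the 144 at 25 to 30%. All 12 windows called down started at 20% or above, where a fall of 20 points is possible. Windows with more CpGs were called up at a larger share: 71.4% of 901 windows with 5 to 9 CpGs, 75.6% of 435 with 10 to 19, and 88.9% of 81 with 20 or more. By chromosome the class made up from 5.99% of the measured windows (chromosome 3) to 10.97% (chromosome 7).

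The edges of the rule cut through a continuum. Just inside the lower edge, chr7:50731001-50732000 read 10.01% in WT and 67.3% in Fbxl10 T/T, and chr19:57082001-57083000 read 10.01% and 1.32%. Just outside it, chr19:24971001-24972000 read 9.998% and 59.1%, and chr7:88598001-88599000 read 9.995% and 73.6%. At the upper edge, chr2:155340001-155341000 read 29.9995% and 24.2% and chr15:82742001-82743000 read 29.999% and 59.9% inside, while chr6:23210001-23211000 (30.01% and 50.5%) and chr1:137947001-137948000 (30.1% and 64.9%) stood outside.

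The 8 windows with the largest rises had WT levels of 10.6 to 15.03% and Fbxl10 T/T levels of 82.1 to 88.6%. At chr10:79198001-79199000 the level was 10.9% ± 11.6 (SD over 19 CpGs) in WT and 88.6% ± 6.51 in Fbxl10 T/T, and its summed reads gave 68.3% of 63 in Ring1B -/- (56.0 to 78.4%), 64.1% of 64 in Eed -/- (51.8 to 74.7%) and 7.89% of 38 in Ezh2 -/- (2.72 to 20.8%). At chr8:73121001-73122000 the level was 12.6% ± 11.8 (SD over 25 CpGs) in WT and 85.4% ± 6.58 in Fbxl10 T/T, with 45% of 100 reads in Ring1B -/-, 11.2% of 152 in Eed -/- and 7.5% of 80 in Ezh2 -/-. The rise in Fbxl10 T/T chose both windows. Ring1B -/- was above WT in both, while Eed -/- was high only in the first. At chr6:126114001-126115000, 1762 bases from a matched start of Ntf3, which encodes the neurotrophin NT-3, the level was 12.8% ± 11.5 (8 CpGs) in WT and 85.7% ± 3.58 in Fbxl10 T/T. Here Ring1B -/- gave 0% of 17 reads, Eed -/- 2.86% of 35 and Ezh2 -/- 11.8% of 17. At chr11:74980001-74981000, 654 bases from a matched start of Hic1, which encodes a zinc finger repressor, it was 10.6% ± 9.51 (27 CpGs) and 82.8% ± 7.46. Its reads gave 20% of 90 in Ring1B -/-, 6.76% of 74 in Eed -/- and 3.28% of 61 in Ezh2 -/-. The other 4 lie at chr16:92606001-92607000, chr6:93628001-93629000, chr14:55251001-55252000 and chr11:95691001-95692000. In Ring1B -/- the summed reads gave 15% of 20 in the first of these, 58.8% of 17 in the second and 40% of 15 in the third. The last had no Ring1B -/- read.

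The 6 windows with the lowest difference all lay at 25.1 to 29.8% in WT and at 1.29 to 4.06% in Fbxl10 T/T. In chr17:46211001-46212000 all 5 CpGs were alike in WT, at 26.7% ± 4.01, and read 1.89% ± 1.11 in Fbxl10 T/T. In chr9:100354001-100355000 the WT level of 29.8% came from a pair of CpGs at 75 and 90% (20 reads each), which read 7.69 and 15.4% in Fbxl10 T/T, whereas the other 4 CpGs, about 500 bases away, read 0 to 7.89% in WT. The window chr11:117641001-117642000 lies 6 bases from a matched start of Tmc6 and held 13 CpGs at 4.11 to 62.9% in WT and at 0 to 8.51% in Fbxl10 T/T. Its summed reads gave 1.25% of 80 in Ring1B -/-, 0 of 61 in Eed -/- and 21.4% of 56 in Ezh2 -/-, so 2 of the mutants were as low as Fbxl10 T/T there. The other 3 lie at chr1:40847001-40848000, chr14:64563001-64564000 and chr15:84069001-84070000. In these and in the chr9 window every mutant was also below WT by summed reads, at 0 to 14.3% of 7 to 55 reads. The fall from WT chose the windows, so lower values in other libraries were in part set by the choice. Some rest on few reads: the 14.3% of 7 in Ezh2 -/- at chr1 has an interval of 2.57 to 51.3%, against 24% of 300 in WT. In the chr9 window the summed reads gave 12.3% of 359 in WT. In the chr17 window Ring1B -/- read 25.9% of 27, Eed -/- 0% of 12 and Ezh2 -/- 5.56% of 18, against 27.5% of 408 in WT.

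The position of the windows beside unmethylated ones was not part of the rule. For 512 of the 1417 windows at least 1 adjoining window was measured, and in 388 of these (75.8%, interval 71.9 to 79.3%) an adjoining window lay below 10% in WT. The same share was 95.2% (94.7 to 95.7%) for windows below 10%, 50.5% (40.8 to 60.1%) for windows at 30 to 70% and 10.3% (4.06 to 23.6%) for windows at 70% or above. The share of the class thus lay between that of the low windows and those of the more methylated ones. Windows below 10% made up 83.2% of all windows measured, so a low neighbour is common and 75.8% alone shows no excess. Under 5 other settings the share of the class was 54.9 to 70.4%. Another low window within 5 kb was found for 41.8% of the 1417 windows. The same share was 53.3% for windows below 10%, 22.0% at 30 to 70% and 8.83% at 70% or above. The remaining windows had no measured neighbour, because RRBS skips DNA without MspI sites and a neighbour also needed 5 CpGs of 10 reads in both libraries. With neighbours of at least 3 CpGs, 640 windows had a measured neighbour and 442 of these lay beside a low one. An unmethylated window that misses these minimums is not counted here.

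Windows at the side of a low window were called up in Fbxl10 T/T at a smaller share than the others. Of the 388 beside a low window 243 were called up (62.6%, 57.7 to 67.3%), and their mean level was 43.2% in Fbxl10 T/T (SD 25.5). Of the 124 whose measured neighbours were all at 10% or above 112 were called up (90.3%, 83.8 to 94.4%), with a mean of 59.6% (SD 17.7). The 735 windows with neither a measured neighbour nor a low window within 5 kb were called up in 76.3% (73.1 to 79.3%). At the other end, 60 of the 388 (15.5%) and 4 of the 124 (3.23%) lay below 10% in Fbxl10 T/T. Windows beside a low one also had the larger CpG-to-CpG SD in WT, with a median of 14.4 points against 11.1.

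Where exactly 1 adjoining window was low, which was so for 377 windows, the pair mostly went the same way. In 198 pairs both windows were called up, with means of 62.5% for the window at 10 to 30% and 60.2% for its low neighbour in Fbxl10 T/T. In 133 pairs neither was called, with means of 12.7% and 2.52% in Fbxl10 T/T against 15.6% and 2.35% in WT. In 36 pairs only the window at 10 to 30% was called up, in 7 pairs only the low neighbour, and in 3 the window at 10 to 30% was called down. The low neighbours themselves were called up in 218 of 392 cases (55.6%, 50.7 to 60.5%), whereas low windows with only low neighbours were called up in 1238 of 6676 (18.5%, 17.6 to 19.5%). Both groups of low windows were chosen by their own WT level and sorted by that of their neighbours, and the calls used the same WT library. The WT mean of the first group was also higher, at 3.62% against 2.06%, so nothing is read from this gap.

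Methylation climbed away from the low window within these 377 windows. In WT the mean over CpGs was 10.01% in the first 100 bases past the border, 12.1% in the next 100, 18.7% at 400 to 500 bases and 24.2% at 900 to 1000 bases. On the low side of the border it stayed between 2.89 and 3.45% in every stretch of 100 bases, and the step at the border itself is set by the way the pairs were chosen. In Fbxl10 T/T the low side read 27.8 to 33.9%, the first 100 bases past the border 36.5% and the farthest 100 bases 53.7%. SDs over CpGs were 14.8 to 24.9 points past the border in WT and 24.2 to 32.3 points in Fbxl10 T/T, so single windows scatter widely around these means. In the 165 windows with CpGs in both the nearer and the farther 500 bases, the nearer part read 11.5% and the farther part 33.2% in WT, a difference of -21.7 points (SD 29.7), and the nearer part was lower in 128 of the 165. In Fbxl10 T/T the parts read 41.1% and 48.9%, a difference of -7.79 points (SD 26.1), and the nearer part was lower in 106. Over all 377 pairs the window at 10 to 30% stood 12.3 points above its low neighbour in WT and 8.51 points above it in Fbxl10 T/T (SD 16.7), where it was the higher of the pair in 265 of 377.

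**Figure D2:**
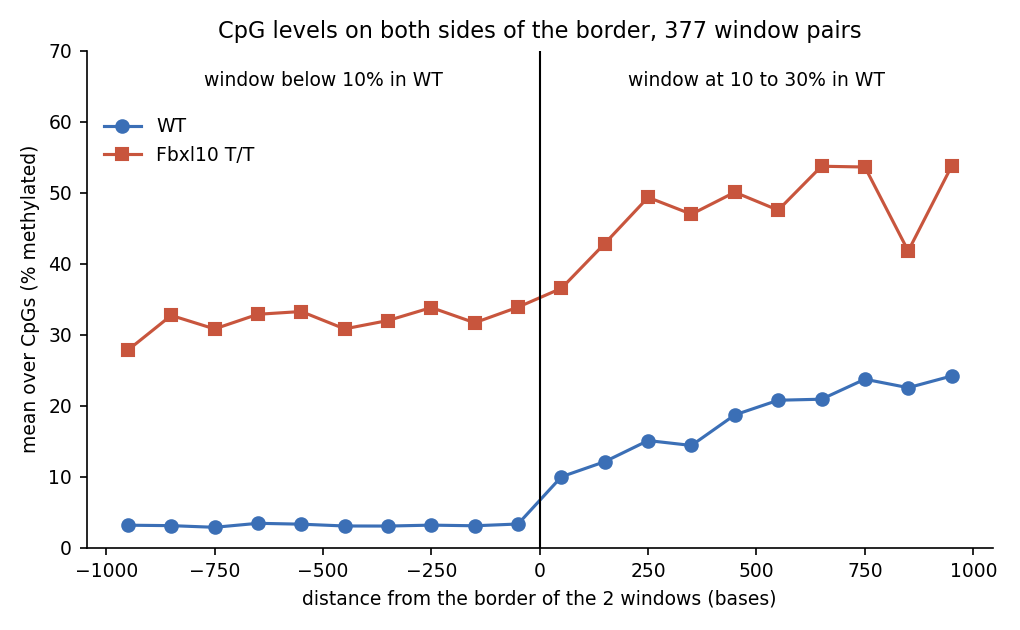
Mean methylation over CpGs (y axis, %) by distance from the border between a low window and its neighbour at 10 to 30% (x axis, bases, in stretches of 100), over 377 pairs in WT and Fbxl10 T/T, without error bars. In WT the low side is flat near 3% and the other side climbs from 10.01 to 24.2%, and in Fbxl10 T/T both sides are raised, with 36.5% in the first and 53.7% in the last 100 bases past the border and an uneven course between them.

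Of the 512 windows with a measured neighbour 114 lay beside another window of the class. The same was so for 392 of 7122 windows below 10%, 19 of 99 at 30 to 70% and 5 of 39 at 70% or above. The class formed 1303 runs of 1 window, 51 of 2 and 4 of 3 windows. A window without a measured neighbour could only count as a run of 1. The run with the most CpGs was chr11:74978001-74981000, beside Hic1, with WT levels of 26.3, 14.6 and 10.6% towards the start of the gene and 83.1, 79.4 and 82.8% in Fbxl10 T/T. The low window that follows it read 6.17% in WT and 67.1% in Fbxl10 T/T, the lowest of the 4 windows in both libraries. In the run chr2:25433001-25436000 the windows read 12.5 to 26.2% in WT and 60.4 to 79.8% in Fbxl10 T/T, and in chr14:33410001-33413000 they read 10.3 to 14% and 53.0 to 69.1%. The remaining run of 3, chr15:102840001-102843000, named after its values were seen, stood lower in Fbxl10 T/T than the runs above. It read 11.1 to 14.4% in WT and 22.6 to 47.04% in Fbxl10 T/T, with 2 of 3 windows called up. Of the 114 windows with another window of the class beside them 103 were called up (90.4%, 83.5 to 94.5%).

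CpGs within a window differed more than read sampling alone gives. The median CpG-to-CpG SD was 11.7 points in WT (quartiles 8.20 and 17.0), where sampling at the reads at hand would give a median of 5.06, and 10.3 points remained after subtracting the sampling variance. It was 2.12 points in windows below 10%, 14.8 at 30 to 70% and 5.77 at 70% or above, and this order follows in part from the level, since means near 0 or 100% leave little room for spread. In Fbxl10 T/T the median SD of the 1417 windows was 13.5 points, with 8.41 from sampling and 10.04 left, although their mean level was much higher. The SD was larger in Fbxl10 T/T than in WT in 794 of 1417 windows.

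The spread grew with distance between CpGs. Successive CpGs 2 to 4 bases apart differed by a mean of 7.52 points in WT (sampling alone 4.89), those 20 to 49 bases apart by 12.0, those 100 to 299 bases apart by 17.7 and those 300 bases or more apart by 31.6. In Fbxl10 T/T the same means were 8.78 (sampling 8.69), 15.9, 20.1 and 23.2 points. Neighbouring CpGs mostly share reads and an MspI fragment, and a long gap usually crosses into another fragment. At the nearest distance the Fbxl10 T/T mean was close to its sampling value. Because such CpGs share reads, this does not show that only noise was present. At the longest distance WT differed more than Fbxl10 T/T.

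**Figure D3:**
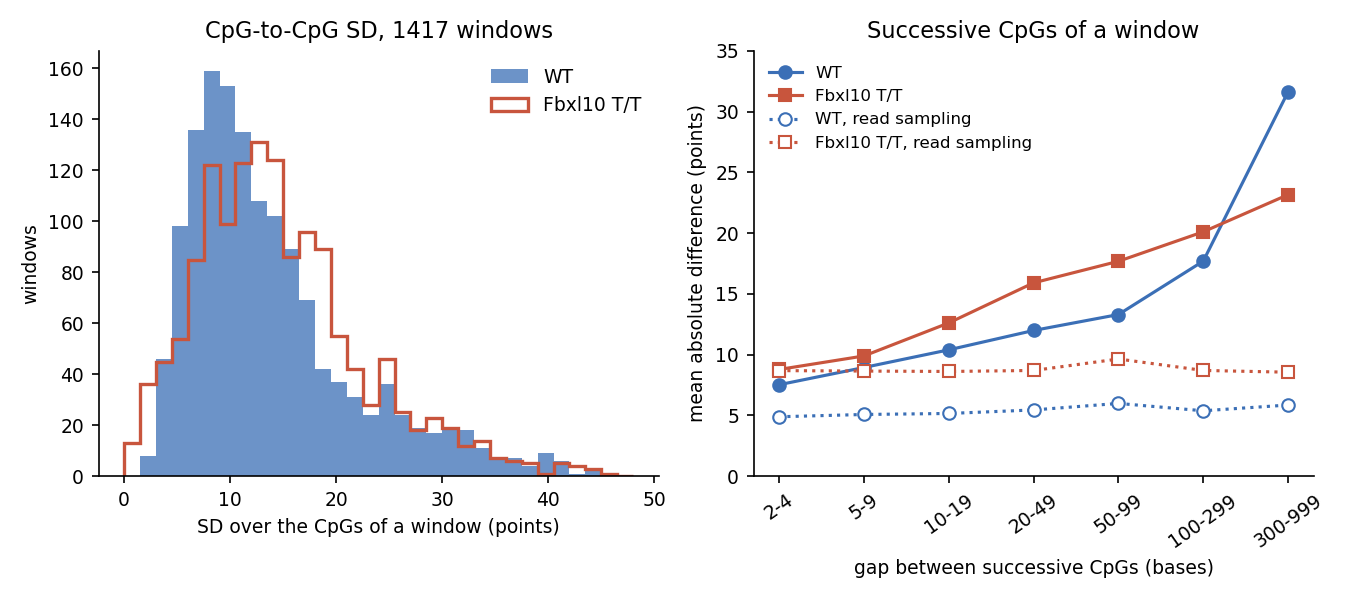
Left, histogram of the SD over the CpGs of each of the 1417 windows (x axis, points; y axis, number of windows) in WT and Fbxl10 T/T. Right, mean absolute difference of successive CpGs (y axis, points) by their gap (x axis, bases), with open symbols for the difference that read sampling alone gives; in WT it climbs from 7.52 to 31.6 points.

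By its CpGs the class held unlike windows. In 269 of the 1417 (18.98%) all CpGs lay within 20 points of each other in WT, and 225 of these were called up (83.6%). In 412 (29.1%) a CpG below 10% stood beside another at 50% or above, and 241 of them were called up (58.5%). In 191 a CpG below 10% stood beside another at 70% or above, and 81 of them were called up (42.4%). Without their highest CpG, 458 windows (32.3%) had a WT mean below 10%, and 276 of these were called up (60.3%), against 768 of the other 959 (80.1%). Windows whose methylation was shared by all CpGs were therefore called up at a larger share than those that rested on few CpGs, a description within windows chosen on the same WT values. The median WT SD was 10.7 points in the windows called up and 16.7 in those not called.

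Single windows show both kinds. In chr5:137358001-137359000 the 14 CpGs lay at 5.81 to 20.2% in WT (SD 4.04) and at 25 to 72.7% in Fbxl10 T/T, and in chr10:93774001-93775000, which holds a matched start of Tmcc3, the 11 CpGs lay at 6.12 to 17.9% (SD 3.62) and 45 to 66.7%. The other 2 windows of smallest SD among those with at least 10 CpGs were chr3:37380001-37381000 (SD 2.91) and chr7:127741001-127742000 (SD 4.12), at 12.3% and 12.2% in WT and 57.1% and 61.9% in Fbxl10 T/T. At the other extreme, chr11:82744001-82745000 had 24 CpGs from 0 to 93.8% in WT (SD 36.1): a block of 4 CpGs at 87.5 to 93.8%, another 2 at 63.5 and 79.4%, and the remaining 18 at 0 to 14.3%. In Fbxl10 T/T the 6 high CpGs read 90 to 100% and the other 18 read 52.5 to 89.3%, so the low CpGs were raised but stayed below the high ones. In chr13:100670001-100671000, which holds a matched start of Cartpt, the gene of a neuropeptide, 4 CpGs at 58.1 to 88.1% and 7 at 0 to 15.7% in WT read 70.6 to 93.3% and 50 to 76.2% in Fbxl10 T/T. In chr2:152453001-152454000, 257 bases from a matched start of Rem1, 3 CpGs at 82.4 to 100% stood beside 10 at 3.57 to 20.8%, and these 10 read 35.5 to 77.4% in Fbxl10 T/T. The window chr2:31938001-31939000, 225 bases from a matched start of Fam78a, went the other way: 3 CpGs at 76.2 to 85.7% in WT (10 to 21 reads each) read 0 to 10% in Fbxl10 T/T, and the other 9, at least 500 bases away, stayed at 0 to 3.45% in both, so that the window mean differed by -19.6 points and was not called.

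**Figure D4:**
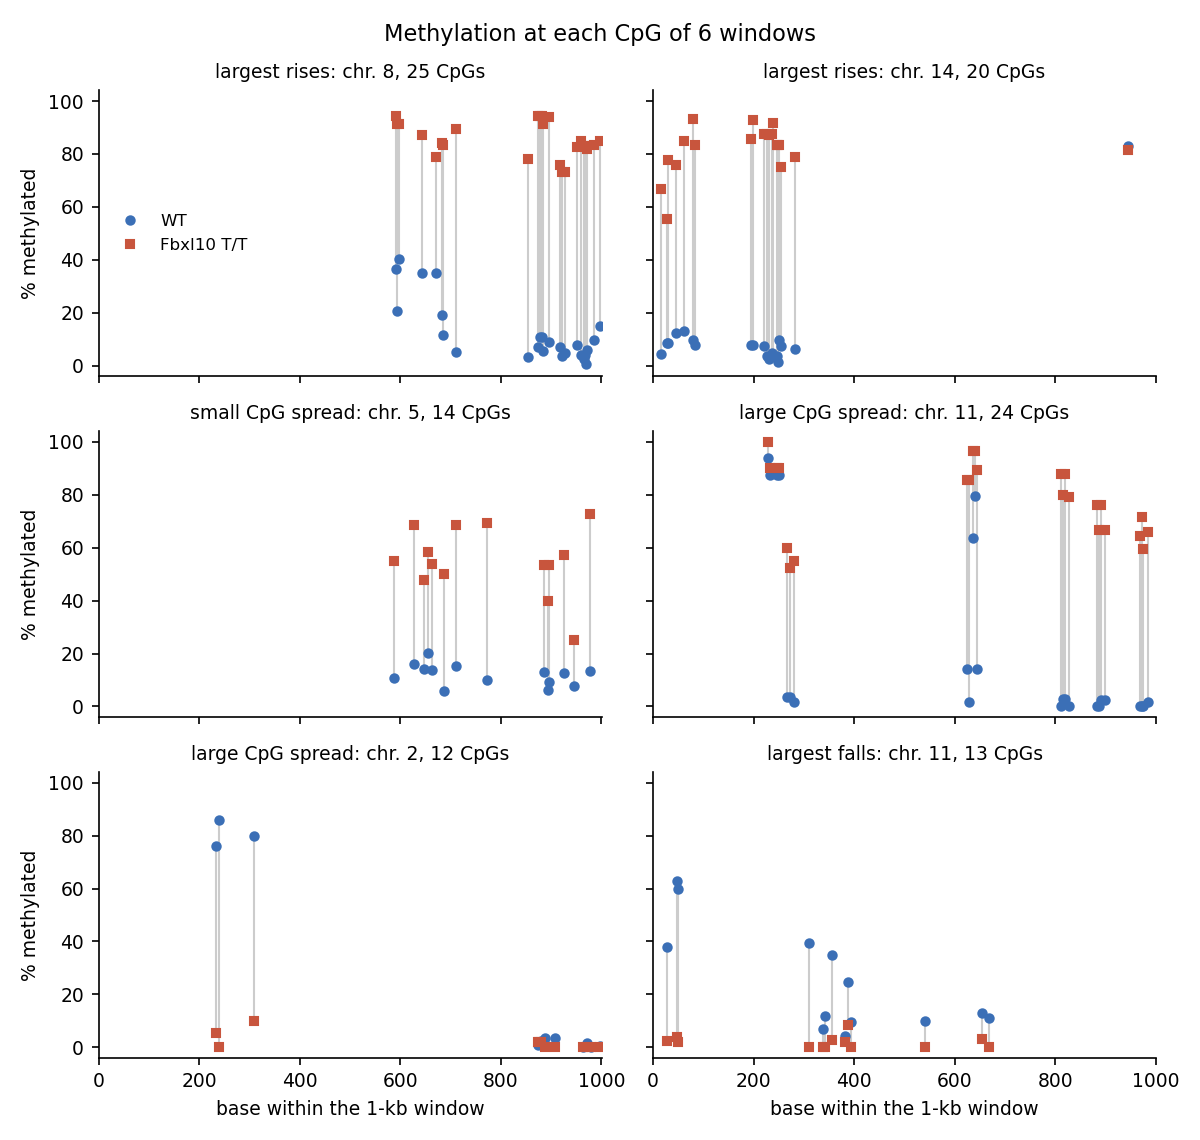
Methylation of each CpG (y axis, %) by its place in the window (x axis, base 1 to 1000) in 6 named windows, with WT and Fbxl10 T/T joined by a grey line at each CpG. In the top row nearly all CpGs are above 60% in Fbxl10 T/T, in the middle row every CpG of an even and an uneven window is higher in Fbxl10 T/T, and in the bottom row the CpGs that were methylated in WT are near 0% in Fbxl10 T/T.

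The 13732 CpGs taken singly gave the same picture. For a CpG the threshold was 25 points, again with an adjusted p below 0.05 (Fisher's exact test, Benjamini-Hochberg over 362754 CpGs). Of those in the windows 8427 were called up (61.4%) and 145 down (1.06%), where 16.6% of all CpGs tested were called up and 4.34% down, again in a contrast that chose the windows. In 259 windows every CpG was called up, in 295 none was, and in 12 some were called up and others down. In WT 1080 CpGs had no methylated read, 2234 lay above 0 and below 5%, and 2577 at 5 to 10%. In windows called up, the 467 CpGs at 0% in WT reached a mean of 49.4% in Fbxl10 T/T (SD 22.9), those at 5 to 10% reached 60.7% (SD 18.3), those at 20 to 30% 66.6% (SD 16.0) and those at 70% or above 81.9% (SD 15.9). The higher a CpG stood in WT, the higher it stood in Fbxl10 T/T, but the range of means was narrower than in WT. By flanking base, CpGs in ACGT and TCGA deviated from their window's mean by -2.51 and -2.61 points in WT (276 and 297 CpGs), and by -4.84 and -2.10 points in Fbxl10 T/T, while the other flanks deviated by less than 2 points.

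CpGs that did not choose the windows gave a similar difference, but they come from the same libraries and in part from the same reads. CpGs inside CCGG, which the rule left out, were available in 1416 of the windows (6873 CpGs). They read 33.8% in WT (SD over windows 9.15) and 60.4% in Fbxl10 T/T (SD 18.8), a mean difference of 26.6 points (SD 18.4), and were higher in Fbxl10 T/T in 1226 windows. In the windows called up they differed by 35.5 points and were higher in 1043 of 1044, and in the others by 1.70 points and in 183 of 372. In windows below 10% these CpGs read 23.0% in WT and 31.9% in Fbxl10 T/T. They lie at the ends of the same fragments, so they share reads with the CpGs of the rule. When windows were chosen by every other CpG and measured at the CpGs left over, 1464 windows chosen by odd-numbered CpGs read 14.3% in WT and 47.5% in Fbxl10 T/T at the even-numbered ones, and 1030 were called up (70.4%, where 25.3% of all windows were). Chosen by even-numbered CpGs, 984 of 1395 were called up (70.5%, where 25.2% of all were). At the CpGs left over, 494 of the 1464 and 415 of the 1395 windows lay below 10% in WT. Odd- and even-numbered CpGs alternate and mostly share reads, so the choice and the levels are not independent. Nothing is read from the gap to all windows here either.

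Gene starts were placed by matching RefSeq promoter sequences (build GRCm38.p6) at 98% identity or more to the sequence that the tables spell out. This found 8281 of 31396 autosomal promoter sequences, and chromosome 18, with 31 of the windows, has none in the table, so 1386 windows could be placed. Of these, 212 held a matched start (15.3%, 13.5 to 17.3%), against 38.7% of the windows below 10%, 5.15% at 30 to 70% and 1.10% at 70% or above. A matched start lay within 2 kb of 414 (29.9%). Where a pair with a low window could be placed, the start was in the low window only in 105 of 369 pairs, in the window at 10 to 30% only in 42, in both in 11, and in neither in 211. Windows that held a start were called up in 60.8% (54.1 to 67.2%) and those with no matched start within 5 kb in 79.0% (76.2 to 81.5%). Many promoters are not matched, so windows without a start may still hold one. The spelled bases were 70.6% G or C with 10.1 CpGs per 100 bases (medians), between 73.6% and 12.3 in windows below 10% and 68.4% and 8.82 at 30 to 70%.

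Developmental regulators that are typical Polycomb targets were present among these windows. Of 151 such genes listed, 54 had a matched promoter and 51 a measured window within 2 kb of a start. A window of the class lay there for 17 genes, with 19 windows in all. The same share over all matched genes was not counted, so the 17 show no excess. Of these 19, 15 were called up and none down, against 73.7% called up in the class and 25.3% of all windows. Their median in Fbxl10 T/T was 58.9%, beside 57.0% over the class, and the difference was not tested. Emx2, a homeobox gene of the forebrain, had the highest Fbxl10 T/T level, at 73.9% ± 9.95 (SD over 7 CpGs) against 13.5% ± 8.62 in WT, and Six2, a homeobox gene of kidney progenitors, read 70.8% ± 11.5 against 12.9% ± 10.9 (12 CpGs). Beside Gata2, a transcription factor of blood progenitors, the level was 66.7% ± 18.5 against 16.1% ± 6.54 (17 CpGs). Beside Barhl1, a homeobox gene of the nervous system, it was 68.3% ± 16.4 against 12.7% ± 14.1 (29 CpGs). The window holding the start of Hoxa6, a patterning gene, read 50.6% ± 16.9 against 14.1% ± 13.2 (24 CpGs). Windows at Pax6, Lmx1b, Uncx, Nkx2-9 (2 windows), Six6, Neurog1, Tbx1 (2 windows) and Olig2 were also called up, with 48.6 to 71.1% in Fbxl10 T/T.

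The 4 windows of the list that were not called lay at Wnt1, Wnt2, Foxa2 and Lhx3. The Wnt2 window, with the start of a gene for a signalling ligand, read 15.8% ± 25.2 (SD over 16 CpGs) in WT and 25.4% ± 24.6 in Fbxl10 T/T, and the Wnt1 window, again at a ligand gene, 21.5% ± 16.9 and 30.02% ± 27.8 (11 CpGs). Foxa2, an endoderm regulator, read 19.9% and 9.86%, and Lhx3, a pituitary and motor neuron regulator, 24.3% and 40.2%. All 4 had a WT SD over CpGs of 16.6 to 25.2 points, above the median of the class, as had several windows of the list that were called up, such as those at Tbx1 (25.2 points) and Lmx1b (17.3 points).

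The 250 bases before the start of 2 of these genes and of a germline gene are shown for the difference in outcome (RefSeq, GRCm38.p6, strand of the gene, CpGs in capitals).

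Ddx4, 250 bases before the start: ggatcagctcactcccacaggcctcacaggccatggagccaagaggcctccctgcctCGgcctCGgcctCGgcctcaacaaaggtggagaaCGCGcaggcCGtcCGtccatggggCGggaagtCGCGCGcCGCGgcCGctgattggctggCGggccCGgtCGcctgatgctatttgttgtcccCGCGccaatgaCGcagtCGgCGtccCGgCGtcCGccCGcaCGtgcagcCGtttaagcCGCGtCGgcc
Hoxa6, 250 bases before the start: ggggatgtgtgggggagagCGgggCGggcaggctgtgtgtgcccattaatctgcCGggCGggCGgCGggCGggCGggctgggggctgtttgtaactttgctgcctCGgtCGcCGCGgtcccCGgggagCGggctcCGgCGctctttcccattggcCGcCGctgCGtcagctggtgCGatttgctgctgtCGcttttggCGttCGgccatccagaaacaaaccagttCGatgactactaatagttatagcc
Wnt1, 250 bases before the start: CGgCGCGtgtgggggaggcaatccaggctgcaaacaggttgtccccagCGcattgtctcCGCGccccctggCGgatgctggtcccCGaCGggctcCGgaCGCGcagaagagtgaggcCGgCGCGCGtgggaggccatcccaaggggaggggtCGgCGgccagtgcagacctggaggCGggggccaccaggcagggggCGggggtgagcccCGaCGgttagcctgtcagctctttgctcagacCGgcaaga

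Of the 31 CpGs before Ddx4, a germ cell RNA helicase gene, 14 were measured, at 2.00 to 31.4% in WT (mean 14.2%) and 33.3 to 95.2% in Fbxl10 T/T (mean 69.1%). Before Hoxa6, 9 of 24 CpGs were measured, at 0 to 6.45% in WT (mean 3.33%) and 10 to 70.8% in Fbxl10 T/T (mean 51.4%), so the methylation that put this window into the class lay outside the printed stretch. Before Wnt1, 7 of 23 CpGs read 1.72 to 30% in WT (mean 11.8%) and 5.13 to 27.3% in Fbxl10 T/T (mean 11.3%), with no difference of the means beyond 1 point. The 3 sequences thus carry 23 to 31 CpGs each and differ in outcome.

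From the other lists few genes had a window of the class. Few had any measured window within 2 kb of a start: 7 germline, 8 imprinted and 9 housekeeping genes. Of 27 germline genes 9 had a matched promoter and Ddx4 alone had such a window, at 17.2% ± 9.56 (SD over 19 CpGs) in WT and 70.6% ± 18.8 in Fbxl10 T/T. Among 33 imprinted genes 10 were matched, and Gnas, the gene of a G protein subunit, had 2 windows, 1507 and 507 bases from its matched start, at 18.3% and 13.5% in WT and 76.6% and 57.8% in Fbxl10 T/T. Of 24 housekeeping genes 10 were matched, and Tbp, which encodes the TATA-binding protein, had a window at 10.2% ± 15.9 in WT and 8.40% ± 9.50 in Fbxl10 T/T that was not called. The Twist2 window read 10.8% ± 10.9 and 50.5% ± 24.8 (12 CpGs).

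In the Polycomb mutants the windows were mostly close to WT or below it. The 3 comparisons share the WT library with the Fbxl10 T/T comparison. Few of the 1417 windows had 5 CpGs of 10 reads in a mutant, namely 16 for Ring1B -/-, 23 for Eed -/- and 15 for Ezh2 -/-. In Ring1B -/- 3 of 16 were called up and 1 down, where 0.746% of all windows tested were called up and 0.373% down. In Eed -/- 1 of 23 was called up and none down (0.574% and 0.246% of all windows), and in Ezh2 -/- none of 15 either way (0% and 0.673%). With reads summed over windows with at least 30 reads, 39 of 366 were called up in Ring1B -/- and 11 down (1.31% and 0.558% of all windows). In Eed -/- 5 of 405 were called up and 12 down (0.343% and 0.665%), and in Ezh2 -/- 2 of 343 were up and 6 down (0.213% and 0.795%). The mean of these windows was 14.4% in WT and 14.7% in Ring1B -/- (SD 16.2), 13.9% and 7.80% in Eed -/- (SD 8.21), and 13.6% and 11.03% in Ezh2 -/- (SD 9.04).

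Comparisons that leave WT out do not share the values that chose the windows. Fbxl10 T/T was higher than Ring1B -/- in 257 of 364 windows (70.6%), where 20.8% of all windows were, and lower in 1 (0.454% of all). It was higher than Eed -/- in 317 of 403 (78.7%, 22.2% of all) and higher than Ezh2 -/- in 272 of 341 (79.8%, 21.7% of all), and lower than these 2 in none (0.289% and 0.19% of all). Means were 51.8% in Fbxl10 T/T and 14.7% in Ring1B -/-, 51.3% and 7.69% in Eed -/-, and 52.4% and 11.1% in Ezh2 -/-. Ring1B -/- was higher than Eed -/- in 24 of 251 windows (9.56%, 0.8% of all) and higher than Ezh2 -/- in 19 of 221 (8.597%, 0.93% of all), and lower in none (0.0551% and 0.0148% of all). Of the 24, 23 were among the 195 windows called up in Fbxl10 T/T and 1 among the 56 others. Outside the class, windows at 30 to 70% in WT also had Ring1B -/- above the other mutants. Over 214 of them with at least 10 reads in all 5 libraries, its median was 42.4%, against 24.1% for Eed -/- and 23.7% for Ezh2 -/-. At 70% or above Eed -/- had the highest median of the mutants (77.8%), with Ring1B -/- at 72.3%. The gap to all windows is thus not shown to be particular to the class. Ezh2 -/- and Eed -/- differed in 2 of 225 windows each way (0.0717% and 0.272% of all). These tests ask for 30 reads or more in both libraries, 20 points or more and an adjusted p below 0.05 (Fisher's exact test), and they compare libraries that differ in culture labels where Fbxl10 T/T is 1 of the pair.

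In 808 windows with at least 10 reads in all 5 libraries the levels of the 601 called up and the 207 others could be set side by side. For the 601 the median was 14.2% in WT, 63.4% for Fbxl10 T/T, 11.1% for Ring1B -/- (quartiles 4.17 and 25.3), 6.45% in Eed -/- (1.961 and 11.9) and 10% in Ezh2 -/- (4.35 and 17.9). The 207 had medians of 13.5%, 10.5%, 3.62%, 4.08% and 5.56% in the same order. Ring1B -/- read 30% or more in 124 of the 601 (20.6%) and in 14 of the 207 (6.76%), Eed -/- in 21 and 8, and Ezh2 -/- in 49 and 13. Median reads per window were 25 to 31 in the mutants, so counting error is part of these spreads. At CpGs inside CCGG the order differed: over 3944 such CpGs read in all 5 libraries, in 1210 of the windows, WT stood at 30.5%, Fbxl10 T/T at 53.9%, Ring1B -/- at 42.8%, Eed -/- at 37.7% and Ezh2 -/- at 38.8%. In windows below 10% in WT, such CpGs stood at 22.5%, 29.5%, 35.3%, 33.9% and 32.8% in the same order. The mutants were thus above WT at CCGG outside the class as well.

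**Figure D5:**
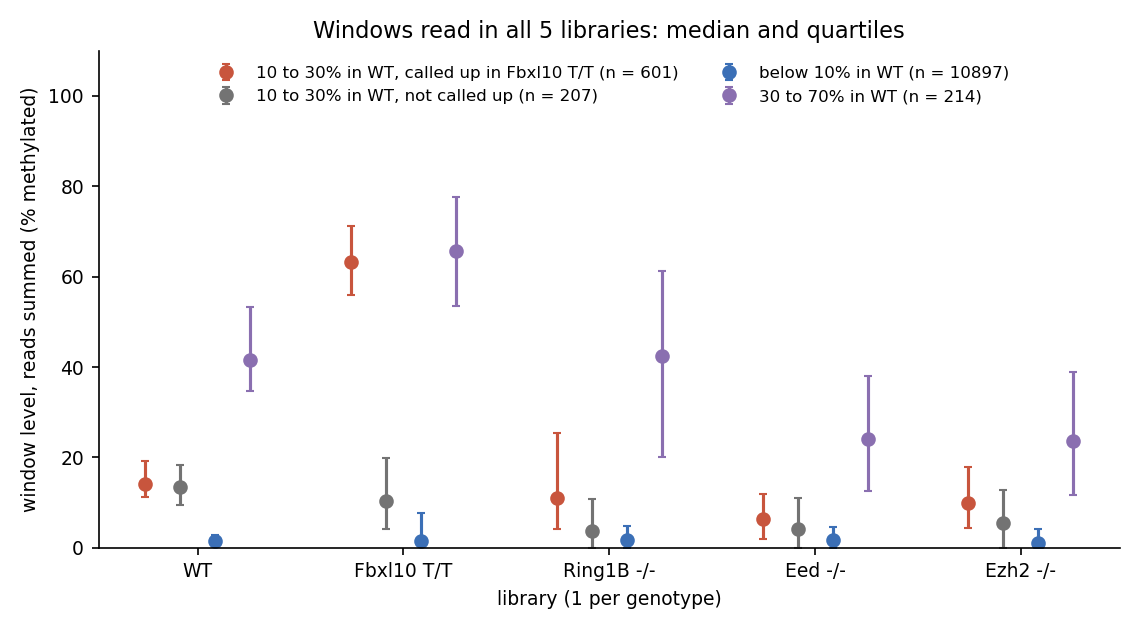
Median and quartiles (points and bars) of window methylation (y axis, %, reads summed outside CCGG) in each of the 5 libraries (x axis) for windows with at least 10 reads in all 5. The 601 windows called up are at 63.4% in Fbxl10 T/T and between 6.45 and 14.2% in the other 4 libraries, the 207 others are at or below 13.5% throughout, and windows below 10% and at 30 to 70% in WT are drawn for comparison.

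A few windows were high in a Polycomb mutant. At chr2:28765001-28766000, 2015 bases from a matched start of Barhl1, summed reads gave 14.9% in WT, 75% in Fbxl10 T/T, 71.7% of 60 in Ring1B -/- (59.2 to 81.5%), 11.5% of 52 in Eed -/- and 16.7% of 30 in Ezh2 -/-. At chr19:11943001-11944000, shown above, they gave 10.9%, 46.5%, 60.6% of 241 (54.3 to 66.5%), 36.1% of 230 (30.2 to 42.5%) and 9.46% of 74. At chr19:5757001-5758000 they gave 17.99%, 78.4%, 44.3% of 70 (33.3 to 55.9%), 9.68% of 62 and 1.92% of 52. These 3 were picked as the windows furthest above WT in Ring1B -/-. Of the 16 windows tested there, 14 were called up in Fbxl10 T/T. That both libraries were above WT in all 3 was thus largely set by the choice. Eed -/- was above WT only in the second, and Ezh2 -/- in none beyond its interval. At chr8:47379001-47380000 the order was another: 19.6% in WT, 48.2% in Fbxl10 T/T, 0 of 83 reads in Ring1B -/- (up to 4.42%), 10% of 70 in Eed -/- and 22.2% of 27 in Ezh2 -/-. The chr5:147072001-147073000 window shows the weight of single CpGs: its mean over 13 CpGs was 15.5% in WT, but its summed reads gave 3.61% of 23845 in WT, 24.05% of 15495 in Fbxl10 T/T, 23.1% of 338 in Ring1B -/-, 11.3% of 363 in Eed -/- and 8.73% of 229 in Ezh2 -/-.

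Further measures of the libraries stand beside these values. Outside CpG, at cytosines not followed by A, the windows read 0.604% in WT and 0.762% in Fbxl10 T/T, far below the CpG levels, and the mutants higher, with 2.70% for Ring1B -/-, 2.48% for Eed -/- and 2.02% for Ezh2 -/-. Those of the mutants are of the size of some of their CpG levels, and their part in the results was not tested. Reads of the opposite strand showed less than 90% G, as a C-to-T variant would, at 12 of the 13732 CpGs in WT and at 17 in Fbxl10 T/T.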

How the data were processed

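RRBS tables of 5 libraries of mouse ES cells, 1 per genotype, were used as deposited. Per the submitters' processing notes, BSMAP 2.74 and build mm9 were used, and trimming and removal of duplicates are not given in the sources used here. Per the file headers, each row is 1 cytosine with raw counts of reads (showing C, showing C or T, and of the opposite strand), deposited expected counts of C or T reads that the authors corrected for variants, and the deposited fraction of C reads over these. Levels here are raw C reads over C or T reads. CpGs were taken from the + strand rows.

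Members and lists were chosen with earlier results of these data known. Windows of 1 kb followed a fixed frame from the start of each chromosome. Summed reads of windows, and reads of CpGs, went into a two-sided Fisher's exact test, adjusted by Benjamini-Hochberg over all tested, with code checked on simulated reads at the real depths. A matched start needed 24 identical bases, at least 40 spelled bases and 98% identity at 1 place only. Windows named were the 8 largest rises, the 6 lowest differences, the 4 largest and 4 smallest SDs (at least 10 CpGs), the longest 3 runs, those nearest to each edge of the rule and, per Polycomb mutant, up to 3 furthest from WT each way (in part given here). Genes named were those at named windows and list genes with a member within 2 kb. No genome or annotation of mm9 was used, so exons and introns are not given. Pairs of libraries without WT and window medians over 5 libraries were chosen after seeing the data. Python 3.11.15, NumPy 2.4.6, pandas 2.3.3, SciPy 1.17.1, Numba 0.67.0 and Matplotlib 3.10.9 were used.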

Additional observations from a re-analysis of the deposited data

How the results depend on the processing

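No paired analysis was possible because there was 1 library per genotype and the labels give no pairing. The number of windows in the class depended on the rule: 6764 with CpGs inside CCGG kept, 2167 with at least 3 CpGs, 516 with at least 10, and 590 with WT edges of 15 and 25%, against 1417. In Fbxl10 T/T 3151 were called up with CCGG kept, 401 with at least 10 CpGs and 437 with the narrower edges, and the other 14 settings gave 810 to 1537. The number called down was 5 with CCGG kept, 26 with at least 3 CpGs, 2 with at least 10, 6 with the narrower edges, 7 at a minimum of 20 reads, 73 with a difference of 10 points, 0 with 30 points, and 19 with windows chosen by odd-numbered CpGs. The mean difference of 33.2 points became 33.0 at 5 reads, 20.7 with CCGG kept, 31.5 with at least 3 CpGs, 36.8 with at least 10, 33.7 weighted by reads, 32.96 with the frame shifted by 500 bases, 31.7 in 2-kb windows, 32.1 with the narrower edges, 32.9 after subtracting the median of all windows, and 32.0 with windows chosen by even-numbered CpGs. The share beside a low window was 57.3% with CCGG kept, 69.7% with at least 3 CpGs, 70.4% with the shifted frame, 54.9% with low as below 5%, and 69.1% with neighbours of at least 3 CpGs. The median WT SD was 12.5 at 5 reads, 14.4 with CCGG kept, 10.99 with at least 3 CpGs, 13.0 with at least 10, 13.1 in 2-kb windows, 12.8 with the narrower edges, and 10.3 without sampling variance. Between the nearest and farthest of 3 equal stretches the WT difference was -30.7 points, and it was -12.5 in the 9 windows whose other neighbour was measured at 10% or above. At CCGG sites the difference was 26.4 points at 5 reads and 24.4 with reads summed.

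In the Polycomb mutants the counts moved with the depth asked for. At 5 reads 23 were called up and 5 down in Ring1B -/-, 6 down in Eed -/- and 2 down in Ezh2 -/-. With reads summed they were 39 and 11, 5 and 12, and 2 and 6, and with at least 3 CpGs 14 and 3, 2 and 2, and, for Ezh2 -/-, 1 down. With CCGG kept 5, 3 and 1 were called up. Values are single libraries, so these settings say nothing on the spread between cultures, and depth limits the mutants most.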
